A study of Mus musculus with 6 samples.

Results

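A set of 10 genes encoding actin severing, capping, bundling and monomer-binding proteins was chosen by symbol, namely Cfl1, Gsn, Capg, Wdr1, Coro1a, Lcp1, Lsp1, Pfn1, Svil and Fscn1. All 10 were found among the 55487 genes of the count table, and 9 had enough counts to be tested. The 6 samples were of RAW264.7, a mouse line of macrophages from which osteoclasts can be grown, and all had received the osteoclast-forming cytokines RANKL and M-CSF. In 3 of them RhoA had been targeted with Cas9 (titled SMART-Cas9, genotype RhoA knockout), and 3 were wild-type controls, which the design text calls untreated although their labels carry the same cytokines. There was no group with Cas9 alone, and the labels do not say how many edited clones there were or whether replicates came from separate cultures. The spread behind every p-value is therefore that of these samples alone and may be technical. In bulk RNA, fewer cells of a type and less RNA per cell cannot be told apart.

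Actin filaments grow at their barbed ends and are taken apart at their older stretches. Cofilin cuts and depolymerises them with the help of Aip1 and coronin, profilin returns monomers to growing ends, gelsolin and capping proteins close barbed ends, and plastin, fascin and LSP1 bind filaments into bundles. RhoA acts on this cycle through the kinases ROCK and LIMK, which inactivate cofilin by phosphorylation, and through formins, which use profilin-bound actin. In osteoclasts the same proteins build podosomes and the sealing zone. None of these protein activities was measured, only the RNA of each gene.

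Library totals ran from 60198645 to 81830819 counts. The 10 most abundant genes of each library took 44.1 to 47.8% of counts in the knockout-labelled libraries and 62.0 to 63.2% in the controls. Levels below are CPM, counts scaled to a common library size, with TMM factors that correct for such differences in composition, and tests are edgeR quasi-likelihood tests called at a Benjamini-Hochberg adjusted p of 0.05 over 12930 genes. Rhoa itself was not reduced in the libraries labelled RhoA knockout (below, the knockout-labelled libraries), at 34.2, 29.9 and 31.5 CPM, against 21.4, 25.8 and 24.4 CPM in the control libraries (log2 fold change 0.41 ± 0.12, SE, edgeR adjusted p = 0.0136). Its adjusted p was 0.0645 when control replicate 1 was left out, and 0.0741 when knockout replicate 1 was. With a correction for exon length, described below, its log2 fold change was 0.75 (edgeR adjusted p = 0.00033). With library totals in place of TMM scaling it was 0.59 (edgeR adjusted p = 0.00825). Counts per gene do not show changes of sequence, so the editing of Rhoa itself was not tested. Groups are named by their labels, and each direction is that of the libraries so labelled. Replicate 3 stood apart in each group, with a chi-square per degree of freedom of 68.3 to 84.5 against its fellow libraries and of 17.6 to 22.3 between the others. All 7 macrophage markers had counts, with 3 higher and 3 lower in the knockout-labelled libraries. Their sum, most of it the lysozyme gene Lyz2, was 80543.7 to 113195 CPM there and 17367.9 to 19226.5 CPM in the controls, and the part of this difference in the results below was not tested. Counts were found for 7 of 9 osteoclast markers, with Calcr and Oscar at 0. Of the 6 osteoclast markers tested, Ctsk and Atp6v0d2 were higher in the knockout-labelled libraries and Mmp9, Acp5 and Dcstamp lower, with log2 fold changes of 1.10, 0.62, -2.06, -1.43 and -0.77. Nfatc1 was not called (0.64, edgeR adjusted p = 0.0742). With the correction for exon length Nfatc1 was called higher (0.98, adjusted p = 0.0114) and Atp6v0d2 lost its call (0.41, adjusted p = 0.1). The part of the osteoclast markers in the results was not tested. The osteoclast markers summed held 27.2 to 27.3 CPM in the knockout-labelled libraries and 23.9 to 27.7 CPM in the controls. Fibroblast, epithelial, endothelial, B cell and neutrophil lists summed to at most 0.195 CPM in the knockout-labelled libraries and 1.44 CPM in the controls, and the T cell list, nearly all of it Lck, to at most 1.9 and 3.31 CPM.

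Of the 9 genes tested, Lsp1, Gsn, Capg, Cfl1 and Lcp1 rose in the knockout-labelled libraries, Coro1a and Wdr1 fell, and Pfn1 and Svil were not called. Calls were made for 43.2% of all genes tested, with 21.0% higher and 22.3% lower, so changes were common everywhere in these data. The median log2 fold change was 0.47 over the 9 genes and -0.03 over all genes tested. Fscn1 could not be tested because it had 0 counts in every library.

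**Figure D1:**
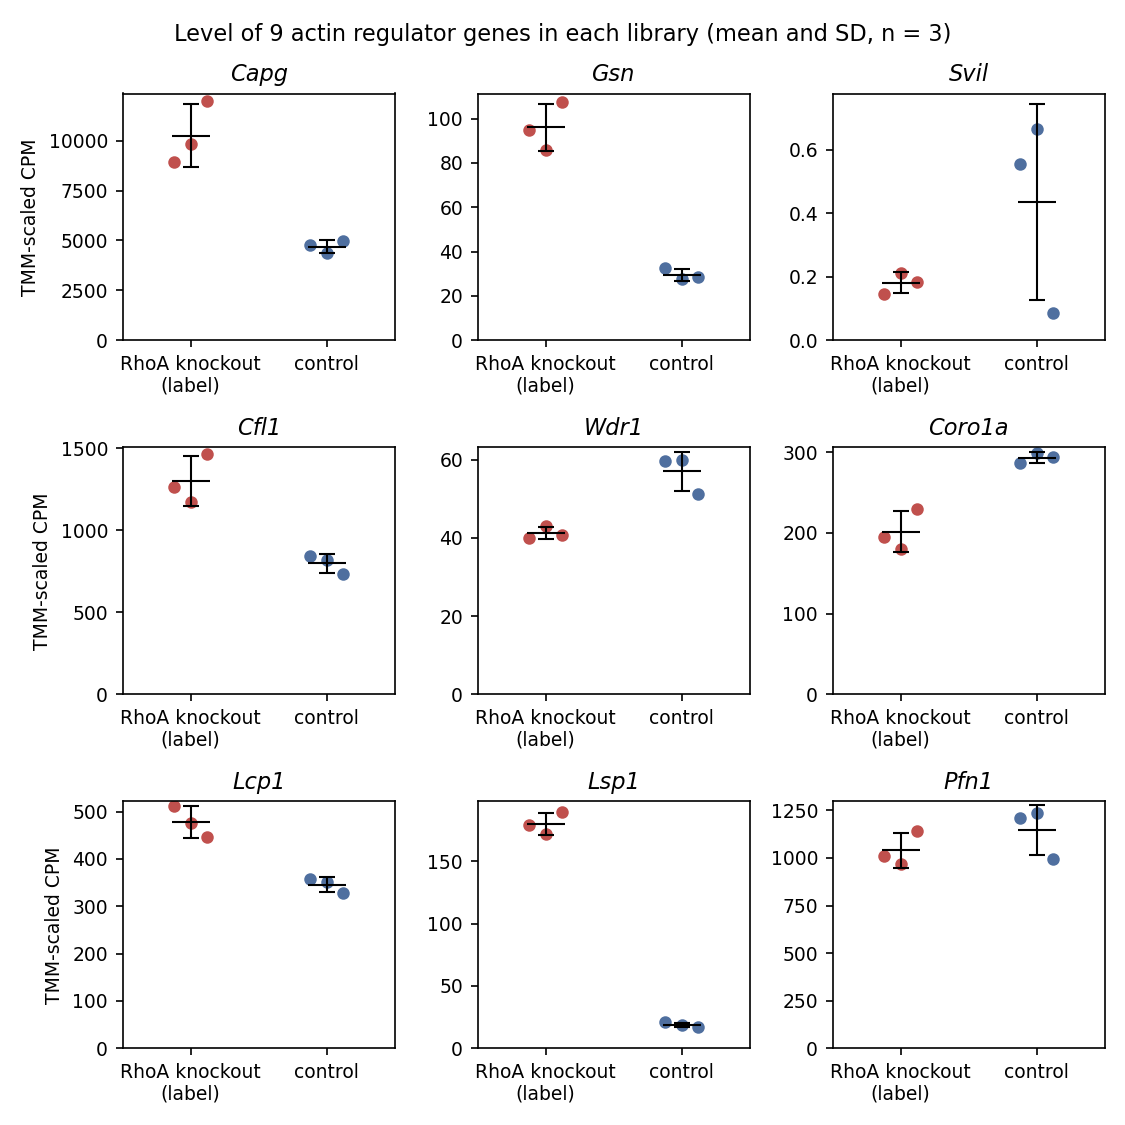
TMM-scaled CPM (linear y axes from 0) of 9 genes in each library, with points for single libraries and bars for the mean and SD of 3, knockout-labelled libraries at left and control at right in each panel. Points of the 2 groups overlap for Svil and Pfn1. How often the groups are apart over all genes tested was not computed.

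Together the 10 genes took 1.4, 1.45 and 1.45% of all counts in the knockout-labelled libraries, against 0.73, 0.697 and 0.661% in the controls. Capg made up most of this sum, with 73.0, 76.1 and 76.8% of the counts of the 10 genes in the knockout-labelled libraries and 62.8, 60.7 and 67.0% in the controls. In TMM-scaled CPM the sum was 1.84-fold higher with Capg and 1.24-fold higher without it.

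Capg encodes the gelsolin-related protein CapG of macrophages, which caps barbed ends and does not cut filaments. On GRCm38, the build of all coordinates here, the gene is at chromosome 6, 72544391 to 72562983, plus strand. It held 8919, 9839 and 11985 CPM in the knockout-labelled libraries and 4749, 4355 and 4972 CPM in the controls. The lowest knockout-labelled value was above the highest control, and replicate 3 was the highest in each group. The means were 10248 ± 1573 CPM and 4692 ± 312 CPM (SD, n = 3 each), a log2 fold change of 1.13 ± 0.14 (SE, edgeR adjusted p = 5.2e-05).

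Gsn encodes gelsolin, which calcium activates to cut filaments and stay on their new ends. It lies at chromosome 2, 35256380 to 35307892, plus strand, and held 94.9, 86.1 and 107 CPM in the knockout-labelled libraries, against 32.6, 27.5 and 28.7 CPM in the controls. The groups did not overlap, and the mean was 3.25-fold higher (log2 fold change 1.70 ± 0.12, SE, edgeR adjusted p = 5.41e-07). RefSeq gives Gsn 3 transcription starts, and counts per gene do not separate the secreted plasma form of gelsolin from the cytoplasmic form. The third gelsolin-family member, Svil, encodes supervillin, which ties actin and myosin to the membrane. Few reads came from it, with 12, 19 and 14 counts in the knockout-labelled libraries and 43, 39 and 5 counts in the controls. The low control replicate 3 made the groups overlap, and the log2 fold change of -1.26 ± 0.94 (SE) was not called (edgeR adjusted p = 0.31).

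Cfl1 encodes the main nonmuscle cofilin and lies at chromosome 19, 5490455 to 5495201, plus strand. It held 1265, 1171 and 1468 CPM in the knockout-labelled libraries and 843, 820.3 and 732 CPM in the controls, without overlap. Replicate 3 was the highest knockout-labelled value and the lowest control. The log2 fold change was 0.70 ± 0.13 (SE, edgeR adjusted p = 0.000719). The pseudogene Gm6180 and the overlapping Snx32 share sequence with Cfl1, but held at most 0.96% of its count in a library.

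Wdr1 encodes Aip1, which speeds the breakdown of cofilin-decorated filaments, and lies at chromosome 5, 38526813 to 38563221, minus strand. It went the other way from Cfl1, with 39.9, 43.0 and 40.7 CPM in the knockout-labelled libraries, against 59.7, 60.0 and 51.2 CPM in the controls. The groups did not overlap (log2 fold change -0.47 ± 0.11, SE, edgeR adjusted p = 0.00374). Wdr1 is a long gene, and with a correction for exon length, described below, its log2 fold change was -0.05 and its adjusted p 0.742. With library totals in place of TMM scaling it was -0.30 (adjusted p = 0.113).

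Coro1a encodes the coronin of blood cells, which binds filaments and the Arp2/3 complex and helps cofilin reach older actin. It lies at chromosome 7, 126699773 to 126707787, minus strand. Its level was 196, 180.4 and 229 CPM in the knockout-labelled libraries and 286, 299 and 294 CPM in the controls. The control values were tight and all above the others, with a log2 fold change of -0.54 ± 0.11 (SE, edgeR adjusted p = 0.00229). Bola2 overlaps Coro1a on the other strand and held 2727, 2880 and 3140 counts in the knockout-labelled libraries, against 5235, 3193 and 4078 in the controls. The strand setting of the counting is not given in the sources used here, so reads of the overlap cannot be assigned to either gene, and their part in the result was not tested.

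Pfn1 encodes profilin, which recharges actin monomers with ATP and hands them to formins. It lies at chromosome 11, 70651850 to 70654644, minus strand, and held 1011, 967 and 1141 CPM in the knockout-labelled libraries, against 1212, 1237 and 996 CPM in the controls. The groups overlapped only through replicate 3, the highest knockout-labelled value and the lowest control, and the log2 fold change of -0.14 ± 0.13 (SE) was not called (edgeR adjusted p = 0.405). Leaving out both replicates numbered 3, a choice made after their distance was seen, gave -0.30 (adjusted p = 0.00752), and the length correction gave -0.40 (adjusted p = 0.0237). With library totals the sign turned, to 0.02 (adjusted p = 0.915). The direction of Pfn1 thus depended on the scaling.

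The ratio of Cfl1 to Pfn1 within a library does not depend on scaling between libraries. Per kb of exon it was 1.06, 1.02 and 1.09 in the knockout-labelled libraries and 0.588, 0.561 and 0.621 in the controls, so Cfl1 RNA was above Pfn1 RNA in every knockout-labelled library and below it in every control. The mean log2 ratio differed by 0.84 (exact 2-sided permutation p = 0.1, the smallest that 3 against 3 allows). The 250 bases before the RefSeq starts of these genes (GRCm38.p6) are shown because the ratio of the pair differed between the groups. Capitals mark the motifs found among those searched on both strands.

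Cfl1, chr19:5490205-5490454, plus strand: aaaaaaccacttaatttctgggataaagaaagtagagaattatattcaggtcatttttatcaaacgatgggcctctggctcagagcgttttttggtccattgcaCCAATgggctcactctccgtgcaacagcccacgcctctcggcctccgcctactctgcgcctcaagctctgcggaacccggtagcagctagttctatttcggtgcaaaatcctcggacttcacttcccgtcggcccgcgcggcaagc

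Pfn1, chr11:70654651-70654900, minus strand: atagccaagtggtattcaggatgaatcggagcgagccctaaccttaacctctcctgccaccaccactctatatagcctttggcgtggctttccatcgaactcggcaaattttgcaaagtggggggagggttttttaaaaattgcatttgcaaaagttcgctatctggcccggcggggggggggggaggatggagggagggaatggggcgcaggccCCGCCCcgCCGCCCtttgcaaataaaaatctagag

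In the Cfl1 window the only match was a CCAAT box, CCAAT, at 146 to 142 bases before the start, and 33.8% of all RefSeq windows of this length held one. The Pfn1 window held no CCAAT box but 2 GC boxes, GGGCGG, read on the opposite strand at 35 to 30 and 27 to 22 bases before the start, which do not overlap. GC boxes were in 32.7% of windows. Neither window held the PU.1 site GAGGAAGT, the AP-1 site TGANTCA, the TATA box TATAAA or the CArG box, which were in 2.4, 6.8, 12.4 and 1.5% of windows. A match describes letters and not binding.

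Lsp1 encodes a leukocyte protein that binds filaments in podosomes and at the membrane, and lies at chromosome 7, 142460809 to 142494867, plus strand. It held 179, 172 and 189 CPM in the knockout-labelled libraries, against 20.7, 18.3 and 17.1 CPM in the controls. Spread within each group was small beside the gap between them. At 9.63-fold (log2 fold change 3.27 ± 0.12, SE, edgeR adjusted p = 3.01e-09) this was the largest change of the 9 genes tested, and it was higher than 98.7% of all log2 fold changes. Lcp1 encodes L-plastin, the bundling protein of leukocytes, and lies at chromosome 14, 75131101 to 75230842, plus strand. It held 512, 476 and 445 CPM in the knockout-labelled libraries and 358, 351 and 328 CPM in the controls. The groups did not overlap, and the log2 fold change was 0.47 ± 0.11 (SE, edgeR adjusted p = 0.00407), or 0.91 with the length correction.

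Per kb the ratio of Lsp1 to Lcp1 was 0.641, 0.664 and 0.781 in the knockout-labelled libraries and 0.106, 0.0957 and 0.0957 in the controls. The mean log2 ratio differed by 2.81 (exact 2-sided permutation p = 0.1, the smallest possible). Fscn1, at chromosome 5, 142960343 to 142973185, plus strand, encodes fascin, the filopodial bundler that mature dendritic cells carry. Its 0 counts allow up to 0.0336 to 0.0512 TMM-scaled CPM, depending on the library, for counting error alone.

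**Figure D2:**
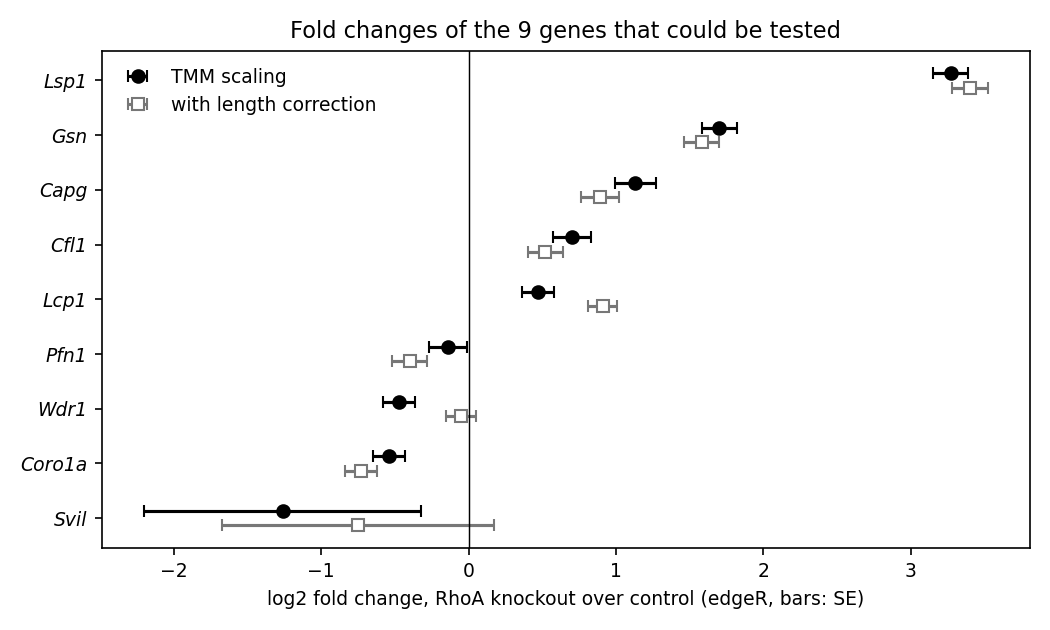
Log2 fold change (x axis, knockout-labelled libraries over control) of the 9 genes tested, with SE bars, under TMM scaling (filled circles) and with the exon length correction (open squares). Lsp1 is farthest right at 3.27, and only Wdr1 and Pfn1 change their call between the 2 fits.

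Exon length moved with the fold changes. With all tested genes cut into 5 groups of equal size by exon length, the median log2 fold change was 0.32 in the shortest, of at most 1750 bp, and -0.47 in the longest, of at least 6975 bp. Cfl1, Capg, Coro1a and Pfn1 have 2405 to 2844 bp of exon and fall in the group of 1751 to 3130 bp, whose median was 0.26. Wdr1, Lcp1 and Svil have 8899 to 10701 bp and fall in the longest group. With an offset for this trend the log2 fold change was 0.52 for Cfl1, 0.89 for Capg, 1.58 for Gsn, 3.40 for Lsp1 and -0.73 for Coro1a, all still called. Coro1a and Pfn1 were below the median of genes of their length, and Lcp1 was above it. The part of RNA quality in the length trend was not tested.

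**Figure D3:**
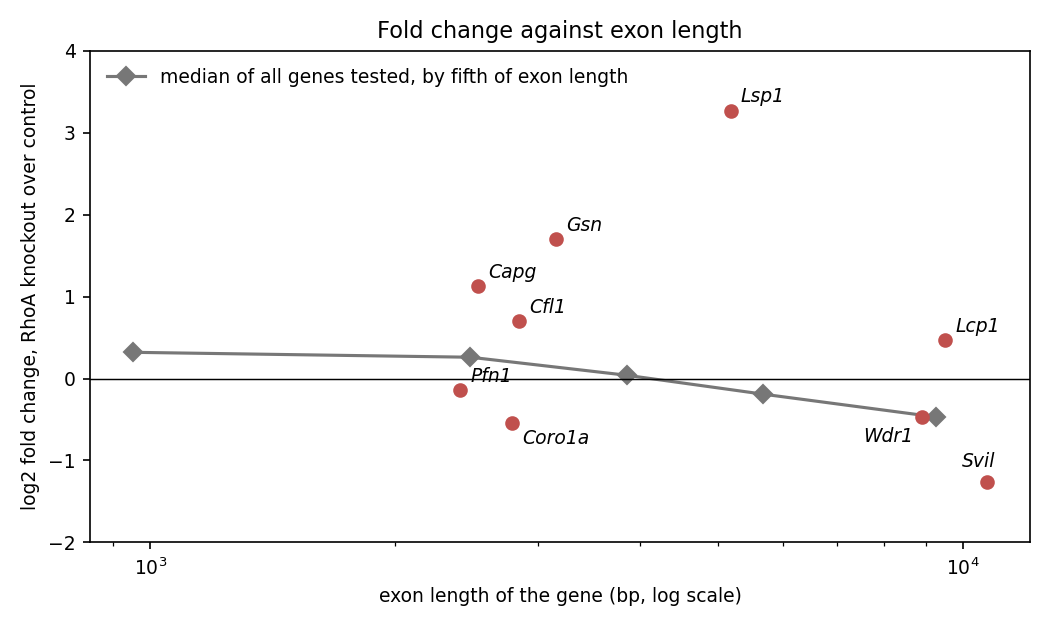
Log2 fold change (y axis) against the exon length of the gene (x axis, bp, log scale) for the 9 genes tested (circles) and for the median of all genes in each of 5 equal groups of exon length (diamonds, at the median length). The medians run from 0.32 at the short end to -0.47 at the long end, and Wdr1 lies on that line.

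Levels of different genes were compared per kb of exon. In the knockout-labelled libraries the order was Capg, Cfl1, Pfn1, Coro1a, Lcp1, Lsp1, Gsn, Wdr1, Svil and Fscn1, with means of 4052, 457, 432, 72.5, 50.3, 34.8, 30.4, 4.63, 0.0169 and 0 CPM per kb. In the controls it was Capg, Pfn1, Cfl1, Coro1a, Lcp1, Gsn, Wdr1, Lsp1, Svil and Fscn1, with means of 1855, 477, 281, 105, 36.4, 9.37, 6.4, 3.61, 0.0408 and 0 CPM per kb. Neighbours in these orders did not overlap, except Cfl1 with Pfn1 and Lsp1 with Gsn in the knockout-labelled libraries. Per kb Lsp1 was thus below Wdr1 and Gsn in the controls and level with Gsn in the others. These orders depended on the division by exon length. In CPM the mean of Lcp1 was above that of Coro1a in both groups. The means were 478 and 202 CPM in the knockout-labelled libraries and 346 and 293 CPM in the controls. Lsp1 was then above Gsn in the knockout-labelled libraries, at 180 and 96.1 CPM.

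Shares within families show how each gene stood beside its paralogs, whatever the scaling between libraries. Cfl1 held 96.7, 96.6 and 96.8% of cofilin RNA per kb in the knockout-labelled libraries and 95, 95 and 94.8% in the controls. Dstn, encoding the related depolymerising factor destrin, was not called (log2 fold change 0.10, edgeR adjusted p = 0.538), nor was Cfl2, the cofilin of muscle (-0.40, 0.252). Lcp1 held 95.4, 93.8 and 95.9% of plastin RNA in the knockout-labelled libraries, against 88.1, 90.7 and 90.2% in the controls. The remainder was nearly all Pls3, T-plastin, which fell by 0.67 on the log2 scale (adjusted p = 0.014).

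Of the coronins, Coro1a held 84.0, 83.7 and 83.7% of coronin RNA per kb in the knockout-labelled libraries, against 90.1, 90.8 and 89.8% in the controls. Coro1c, a widely expressed coronin, rose to 56.0, 46.6 and 58.6 CPM, against 27.8, 29.7 and 25.6 CPM in the controls (log2 fold change 0.95 ± 0.12, SE, edgeR adjusted p = 5.23e-05). Coro1b was not called (0.11, adjusted p = 0.614), and Coro7, the coronin of the Golgi, fell by 0.71 on the log2 scale (adjusted p = 0.00266, or 0.0558 with the length correction). Capg held 99.1 to 99.3% of gelsolin-family RNA in the knockout-labelled libraries and 99.3 to 99.4% in the controls, and Gsn 0.696 to 0.845% and 0.46 to 0.546%. Each of these shares of the cofilins, plastins and of Coro1a and Coro1c differed without overlap, at the smallest exact 2-sided permutation p of 0.1. Over the 27 shares and ratios computed the adjusted p was 0.15 for the 18 that reached it.

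**Figure D4:**
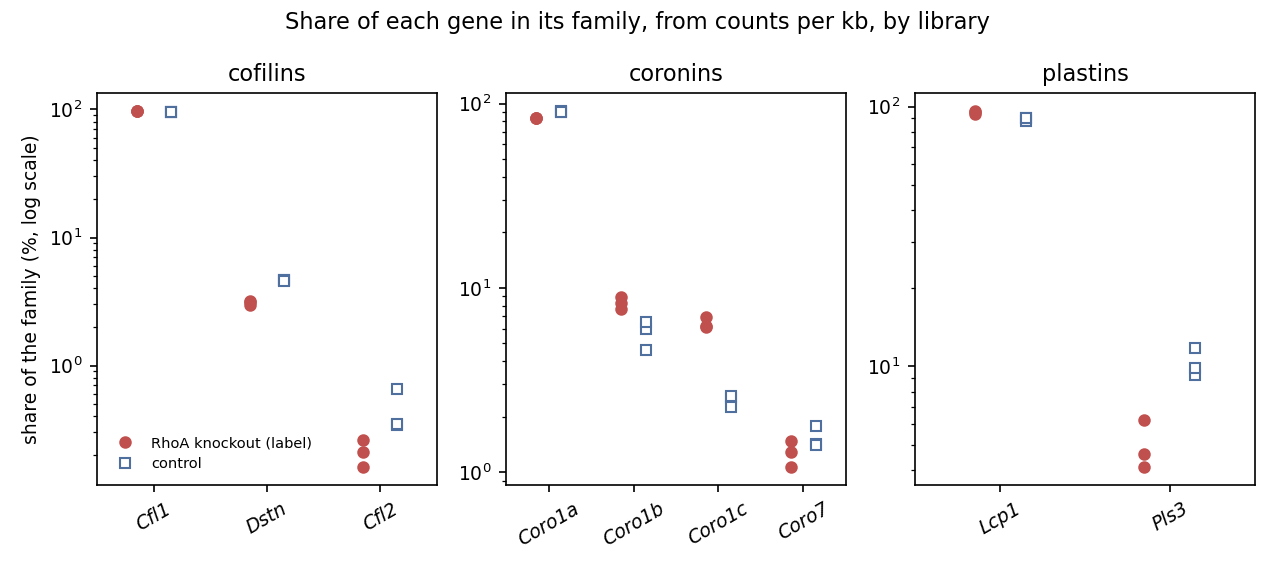
Share of each gene in its family (y axis, percent, log scale), from counts per kb of exon, with 1 point per library, labelled RhoA knockout at left (filled circles) and control at right (open squares) of each gene. On average Cfl1 holds 96.7%, Lcp1 95% and Coro1a 83.8% in the knockout-labelled libraries, against 94.9, 89.7 and 90.2% in the controls.

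Actin, the partner of all these proteins, gave another yardstick within each library. The ratio of Cfl1 to the sum of Actb and Actg1, the cytoplasmic actins, was 0.474, 0.489 and 0.447 per kb in the knockout-labelled libraries and 0.22, 0.215 and 0.195 in the controls. For Pfn1 it was 0.448, 0.478 and 0.411, against 0.374, 0.384 and 0.313 in the controls. The log2 differences were 1.16 and 0.32 (exact 2-sided permutation p = 0.1 each, the smallest possible). Actg1 fell to 481, 473 and 523 CPM in the knockout-labelled libraries, against 1220.1, 1116 and 1171 CPM in the controls (log2 fold change -1.25 ± 0.11, SE, edgeR adjusted p = 3.34e-06), and Actb was not called (-0.18, adjusted p = 0.351). Actg1 is uncertain because its pseudogene copy Gm12715 held up to 12.5% of its count. The ratio of Cfl1 to Wdr1 was 99.3, 85.3 and 113 in the knockout-labelled libraries and 44.1, 42.8 and 44.7 in the controls. With the length correction, the log2 fold changes of these genes of unlike length lay closer, at 0.52 for Cfl1 and -0.05 for Wdr1, so the size of this difference depended on it. The ratio of Capg to Gsn was 117, 143 and 139 in the knockout-labelled libraries, against 182, 198 and 216 in the controls.

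Other actin regulators were grouped in lists, some of which share members with the 10 genes. Of 11 measured capping genes of 16 listed, 6 were higher, 1 lower and 4 not called, with a median log2 fold change of 0.78. Apart from Capg and Gsn these included Capza1 and Capzb, subunits of the heterodimeric capping protein CapZ. Capzb held 155, 159 and 179 CPM in the knockout-labelled libraries, against 82.7, 79.7 and 90.7 CPM in the controls (log2 fold change 0.96 ± 0.11, SE, edgeR adjusted p = 1.7e-05). For Capza1 the log2 fold change was 1.09 (adjusted p = 5.23e-06) and is uncertain because its copy Gm3608 held up to 30.6% of its count. Capza2, named after its value was seen, had one of 0.78 (adjusted p = 8.67e-05). Tmod4, also among the 6 higher and named after its value was seen, rests on few reads. It had 10, 16 and 42 counts in the knockout-labelled libraries and 2, 0 and 0 in the controls. Eps8, a capping and bundling protein of protrusions, fell to 6.39, 8.02 and 4.75 CPM in the knockout-labelled libraries, against 19.7, 19.4 and 23.5 CPM in the controls (-1.70, adjusted p = 1.78e-05).

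Of 12 measured severing and depolymerising genes of 15 listed, 5 were higher, 4 lower and 3 not called, with a median of -0.15. The glia maturation factors, which remove Arp2/3 branches, went opposite ways. Gmfg held 10.6, 9.78 and 11.1 CPM in the knockout-labelled libraries and 1.89, 2.6 and 2.24 CPM in the controls (log2 fold change 2.23, edgeR adjusted p = 2.55e-06). Gmfb held 36.8, 32.7 and 34.3 CPM in the knockout-labelled libraries and 87.2, 76.4 and 104 CPM in the controls (-1.37, adjusted p = 3.99e-06). For Flii, a gelsolin relative, it was -1.34 (adjusted p = 0.000351).

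Of 14 measured bundling and crosslinking genes of 21 listed, 3 were higher, 6 lower and 5 not called, with a median of -0.58. With the length correction 4 were higher and 3 lower, with a median of -0.25, and with library totals 3 were higher and 3 lower. Besides Lsp1 and Lcp1 the higher gene was Dbnl, a drebrin-like adaptor (log2 fold change 1.28, edgeR adjusted p = 2.17e-06). Marcksl1, a membrane-bound filament binder, fell to 15.9, 19.5 and 16.5 CPM in the knockout-labelled libraries, against 84.0, 73.3 and 78.9 CPM in the controls (-2.19, adjusted p = 7.57e-08).

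Of 7 measured monomer-binding genes of 9 listed, 3 were higher, 2 lower and 2 not called, with a median of -0.14. With the length correction 1 was higher and 3 were lower, so the balance of calls turned. Cap1, which recycles cofilin-bound monomers, fell to 55.8, 50.05 and 38.7 CPM in the knockout-labelled libraries, against 107, 100.2 and 111 CPM in the controls (log2 fold change -1.14, edgeR adjusted p = 2.85e-05). For Tmsb10, a thymosin that sequesters monomers, it was -0.93 (adjusted p = 0.0003). The thymosin gene Tmsb4x, named after its value was seen, held 1289, 1119 and 1365 CPM in the knockout-labelled libraries. Its controls held 1009, 939 and 932 CPM (log2 fold change 0.39, edgeR adjusted p = 0.0195). With the length correction this call was lost (0.04, adjusted p = 0.828). For Twf1, the twinfilin that also caps barbed ends, the log2 fold change was 0.80 (adjusted p = 0.00252). Of 5 measured coronins of 7 listed, 1 was higher and 2 lower, with a median of 0.11, and 1 was lower with the length correction. Of 3 measured actins of 6 listed, 1 was lower, or all 3 with the length correction.

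Of 11 measured kinases, phosphatases and regulators of cofilin of 12 listed, 4 were higher, 1 lower and 6 not called, with a median of 0.44. Among the 4 higher, Tesk2, named after its value was seen, is uncertain. Toe1 and Ccdc163 share sequence with it and held more counts in every library. Limk1 and Limk2, the cofilin kinases downstream of ROCK, are given here after their values were seen and were not called (log2 fold changes 0.83 ± 1.00 and 0.44 ± 0.21, SE, edgeR adjusted p = 0.542 and 0.119). With the length correction Limk2 was called higher (0.67, edgeR adjusted p = 0.0225) and Limk1 was not called (1.17, adjusted p = 0.393). That correction gave 5 higher and 1 lower in this list, so the call of Limk2 depended on it. Ppp1ca and Ppp2ca, catalytic subunits of broad phosphatases, had log2 fold changes of 1.29 and -1.77 (adjusted p = 4.32e-06 and 2.64e-06), and Cib1, a calcium-binding protein, one of 0.70 (0.00106). Ssh2, the other higher gene of this list, is named after its value was seen. Its log2 fold change was 0.61 (edgeR adjusted p = 0.00476), or 1.30 with the length correction (adjusted p = 3.72e-05).

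**Figure D5:**
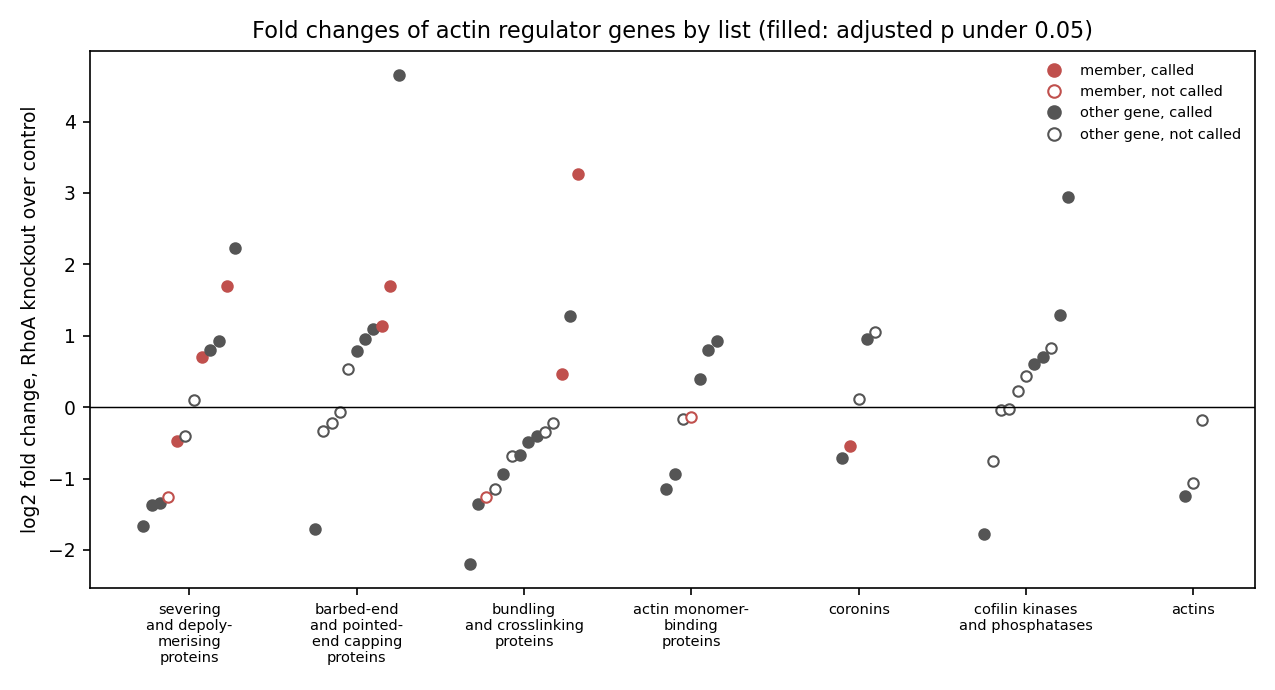
Log2 fold change (y axis, knockout-labelled libraries over control) of each measured gene in 7 lists of actin regulators, with the 10 chosen genes in red and filled points for an edgeR adjusted p under 0.05. Every list but the actins holds calls in both directions, such as 6 higher and 1 lower of 11 capping genes, and no difference between lists was tested.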

How the data were processed

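The values are whole-number counts per gene deposited by the authors in 1 table, without normalization. The genome build was GRCm38, per the submitters' processing notes. Aligner, counter and strand setting: not given in the sources used here. IDs were matched without version to GENCODE M21, with 55227 of 55487 matched, and 0 value columns were left out. Library totals were 71777994, 79639979 and 81830819 counts for the libraries labelled RhoA knockout and 79918899, 60198645 and 66104600 for the controls. The limit given for Fscn1 covers counting error only, while SE and SD also hold the spread between libraries.

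Genes were tested with edgeR 4.0.16 in R 4.3.3 (filterByExpr, TMM factors, robust glmQLFit, glmQLFTest). Calls were made at an adjusted p of 0.05 by Benjamini and Hochberg's method over 12930 genes, and the procedure was tested on simulated data. The simulated data had few changed genes, and neither the length trend nor the difference in composition between the groups, so it did not test those. SE is the log2 fold change over the square root of F. Exon length is the union of annotated exons. The length correction adds a per-library lowess offset (span 0.3) on log2 exon length. Alternatives were other scalings and filters, DESeq2 1.42.0, a replicate block, counts divided by 4 and leaving out libraries. Copies were sought with blastn 2.17.0 at 95% identity over 200 bp, and genes whose copies hold 10% or more of their count are called uncertain.

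The 10 genes and the lists were chosen with earlier results of these data known. Named by rule were the 10 genes, Rhoa, up to 3 other called genes with the smallest p from each list, and paralogs in the families. The result of 1 gene that the rule names is not reported here. Leaving out both replicates numbered 3 was added after the data were seen. Promoter windows are from RefSeq, which had entries for 8 of the 10 genes.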

Additional observations from a re-analysis of the deposited data

How the results depend on the processing

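The 5 rises (Lsp1, Gsn, Capg, Cfl1 and Lcp1) and the fall of Coro1a kept their direction and call under all 17 alternatives. Log2 fold changes ranged from 0.40 to 0.91 for Lcp1 and from -0.74 to -0.38 for Coro1a. Wdr1 lost its call with library totals, with the length correction and with that correction plus the replicate block. Library totals, which moved the median of all genes to 0.15 and left 59.8% of calls higher, against 48.5% with TMM, gave 1 of the 10 genes as lower in place of 2 and turned Pfn1 to 0.02. Leaving out 1 library gave 5 higher and 2 lower of the 10 genes each time, and 2286 to 2673 higher and 2403 to 2640 lower genes in all. Rhoa ranged from 0.34 to 0.45 when 1 library was left out. All 99 alternatives for shares and ratios kept their sign. Those that left out 1 library could not turn it, because the groups did not overlap in any of these shares and ratios. Shares from counts not divided by exon length kept it as well.

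Same-numbered libraries did not deviate together (Pearson r across genes -0.01, 0.03 and 0.01), nor did differently numbered ones (-0.05 to 0.04). A correlation over all genes tested cannot show whether libraries of the same number were prepared together. With the replicate block 5 of the 10 genes were higher and 2 lower, as without it, and over all genes 2634 were higher and 2738 lower, against 2713 and 2879. Svil rests on at most 43 counts in a library, and its controls differed widely, with 5 counts in replicate 3 against 43 and 39.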
